A study of Mus musculus with 30 samples.

Results

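Lgr5-positive cells with high EpCAM from the corpus of the mouse stomach were set against Lgr5-negative cells sorted from the same tissue on the same days. The libraries were chosen by their labels: 3 libraries titled EpCAM high Lgr5 positive and 3 titled Lgr5 negative, 6 of the 30 libraries of the series, which form 10 groups of 3. Both groups came from Lgr5-DTR-GFP mice, in which a diphtheria toxin receptor and a green fluorescent protein are expressed from the Lgr5 locus, so the control cells carry the same allele as the Lgr5-positive cells. The labels also give the genotype as WT for all of them, and neither age, sex nor the number of animals per sort is given in the sources used here. The labels name no treatment. A second Lgr5-positive sort, with low EpCAM, came from the same line and sort days (3 libraries) and enters as a direct comparison. Lgr5-positive and Lgr5-negative cells from the antrum of the same line (3 libraries each) are set beside the corpus values. Libraries are called by group and sort number below, as in EpCAM-high 1.

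The corpus is the acid-secreting body of the stomach. Its glands hold mucus-secreting pit cells at the surface, dividing cells in the isthmus, mucous neck cells, acid-secreting parietal cells, and pepsinogen-secreting chief cells at the base, with scattered endocrine cells and tuft cells. Lgr5 is a receptor for R-spondins, the secreted proteins that strengthen Wnt signalling, and is itself a Wnt target that marks stem cells at the base of intestinal crypts and antral glands. In the corpus it marks a subset of chief cells. EpCAM is an adhesion molecule of epithelial cells. Tuft cells are rare chemosensory epithelial cells that use a taste-like signalling cascade and release interleukin 25, acetylcholine and lipid mediators. Endocrine cells of the corpus include histamine-producing enterochromaffin-like cells and ghrelin-producing cells.

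RNA-seq depth, recovered from the deposited values, ran from 27844137 to 28815715 reads in the EpCAM-high libraries and from 20857682 to 30236004 reads in the Lgr5-negative libraries. The EpCAM-high sorts held 3193, 5230 and 2580 cells, against 54100, 142000 and 65830 cells in the Lgr5-negative sorts. Values are normalized counts, which are gene counts divided by a size factor for each library. They are not divided by transcript length, so levels are compared between groups and not between genes. Log2 fold changes, given in brackets as a difference, are EpCAM-high minus Lgr5-negative on log2(normalized count + 1), with a standard error (SE) where it is printed. They understate the change of genes with low counts. Adjusted p-values come from limma with Benjamini-Hochberg adjustment over all genes tested, at a threshold of 0.05, and "rose" and "fell" are used of genes that passed it. These are bulk libraries of sorted cells, in which fewer cells of a type and less RNA per cell cannot be told apart. A few genes filled much of the EpCAM-low libraries: the 10 most abundant genes took 31.16 to 40.38% of the reads in EpCAM-high, 75.71 to 88.1% in EpCAM-low and 39.55 to 46.66% in Lgr5-negative libraries. The part of this difference in the comparisons with EpCAM-low cells was not tested.

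The genes of the sort itself followed the labels. Lgr5 was at 3169.6, 6537 and 2909.8 normalized counts in the EpCAM-high libraries, against 67.3, 72.6 and 110.0 in the Lgr5-negative libraries (difference 5.57, SE 0.40, limma adjusted p = 0.000161). Epcam was at 28011, 38868 and 30722 in EpCAM-high, against 15942, 14692 and 14654 in Lgr5-negative libraries (difference 1.09, SE 0.17, limma adjusted p = 0.00282). For both genes every EpCAM-high library lay above every Lgr5-negative library. Since the EpCAM-high cells were sorted by the green fluorescent protein of the Lgr5 locus and by EpCAM, this is a check and not a result. The labels of the Lgr5-negative cells name no EpCAM gate. The groups can thus differ in both gates, and differences that go with Lgr5 and with EpCAM cannot be told apart. The Lgr5 transcript was still present in Lgr5-negative cells, at 83.3 ± 23.3 (mean ± SD, n = 3).

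Of the other transcripts used as working markers of the comparison, 2 rose and 1 fell. They were chosen with earlier results of these data known. Nkd1, an intracellular inhibitor of Wnt signalling that is induced by it, was at 2796, 5328 and 3448 in EpCAM-high, against 177, 94.8 and 158 in Lgr5-negative libraries (difference 4.74, SE 0.34, limma adjusted p = 0.000161). Fcna, which encodes ficolin A, a lectin of the complement system known from macrophages, was at 7374, 11799.8 and 7926 in EpCAM-high, against 161, 74.9 and 162 in Lgr5-negative libraries (difference 6.13, SE 0.43, limma adjusted p = 0.000161). Both were high in all EpCAM-high libraries and low in all Lgr5-negative ones, without overlap. The endocrine granule protein chromogranin A (Chga) ran the other way, at 4991, 15547 and 17442 in EpCAM-high, against 146171, 236733 and 145590.1 in Lgr5-negative libraries (difference -3.95, SE 0.47, limma adjusted p = 0.000886). Its lowest EpCAM-high value was that of EpCAM-high 1, and no EpCAM-high library came near the Lgr5-negative ones. The EpCAM-low Lgr5-positive cells had Nkd1 at 231, 298 and 172 and Fcna at 189, 73.6 and 75.0, so these transcripts differed between the Lgr5-positive sorts as well (EpCAM-high minus EpCAM-low 4.02 for Nkd1, limma adjusted p = 6.68e-05, and 6.43 for Fcna, limma adjusted p = 3.06e-05). Lgr5 itself did not pass that test (1.04, limma adjusted p = 0.0707).

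**Figure D1:**
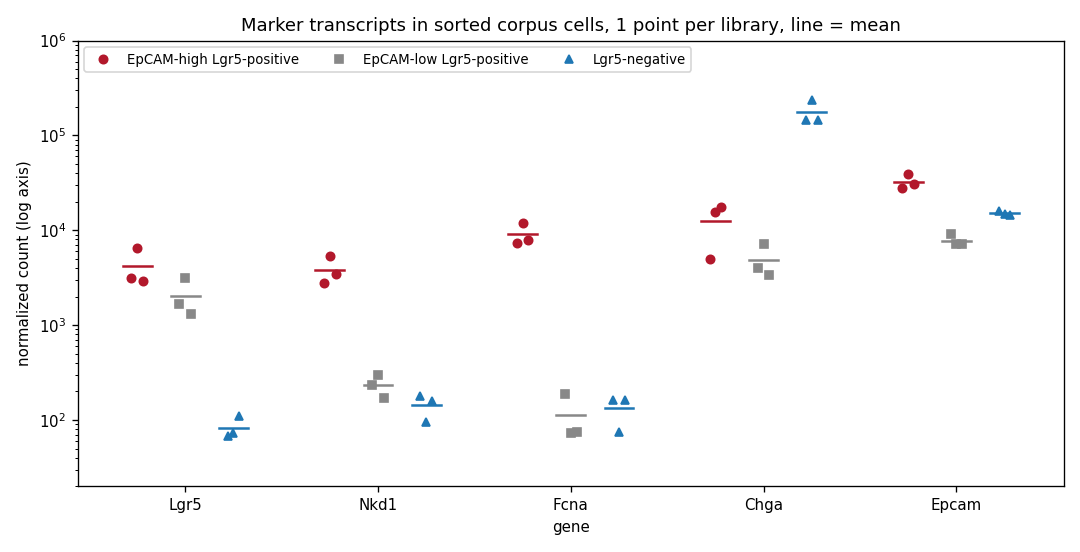
Normalized counts (log axis) of Lgr5, Nkd1, Fcna, Chga and Epcam in the EpCAM-high, EpCAM-low and Lgr5-negative corpus libraries, 1 point per library, with lines at the group means. Nkd1 and Fcna are high in the EpCAM-high libraries alone among these 3 groups (means 3858 and 9033), whereas Lgr5 is high in both Lgr5-positive sorts and Chga is highest in Lgr5-negative libraries.

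Across the transcriptome, 14847 genes were tested and 3140 of them differed (21.1%). Of these, 1585 rose (10.7%) and 1555 fell (10.5%) in EpCAM-high cells, the shares over all genes beside which the counts of every gene list stand. Of the 3140 calls, 3137 went the same way in 3 of 3 same-numbered pairs, and 3134 had no overlap between the groups, where 23.0% of all genes tested lay higher and 25.2% lower without overlap. A lack of overlap given below for a called gene thus describes its values and adds nothing to its call. The median log2 fold change of all genes was -0.06, and -0.11 after scaling by TMM (trimmed mean of M values). With 1 library left out the count of calls was lower, at 1868 without EpCAM-high 2, and 1620, 1372 and 1487 without Lgr5-negative 1, 2 and 3. Of the 3140 calls, 1342 (784 higher and 558 lower) held without any 1 library, 187 of them untested in at least 1 of these 6 fits because they fell under the filter there.

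Most of the tuft cell list rose. Of its 26 genes 25 were tested, 23 rose and none fell, with a median log2 fold change of 3.59 beside -0.06 over all genes. In summed normalized counts the list stood at 343018, 386758 and 597861 in EpCAM-high libraries from lowest to highest, against 27706.7, 40308.1 and 52439.6 in Lgr5-negative libraries. The means of the risen genes were 6.24 to 28.4 times as high in EpCAM-high as in Lgr5-negative cells. Each of the 23 was higher in 3 of 3 pairs, and none overlapped between the groups. Nearly all calls share this (3137 and 3134 of 3140), so it is not particular to tuft genes. Here and below, genes described singly beyond those that the naming rule picks were chosen after their values were seen.

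The members that define tuft cells rose. Dclk1, a kinase used to mark tuft cells, was at 51162, 97468 and 60829 in EpCAM-high, against 8426, 4126 and 6291 in Lgr5-negative libraries (difference 3.48, SE 0.57, limma adjusted p = 0.00339). Pou2f3, the transcription factor that tuft cells require, was at 7519, 11359 and 6632, against 1256, 762 and 932 in Lgr5-negative libraries (difference 3.10, SE 0.68, limma adjusted p = 0.0113). Both were highest in EpCAM-high 2, and neither overlapped between the groups. Other transcription factors of the list rose with them: Gfi1b by 3.93 log2 units (SE 0.77, limma adjusted p = 0.00718), Spib by 3.68 (SE 0.44, limma adjusted p = 0.000909) and Ascl2 by 3.83 (SE 0.27, limma adjusted p = 0.000161). Ascl2 is also a Wnt target of intestinal stem cells and stands in that list too. Avil, which encodes the actin-binding protein advillin, was at 35504, 70846 and 47980.1 in EpCAM-high, against 10073, 5823 and 6942 in Lgr5-negative libraries (difference 2.74, limma adjusted p = 0.00719). The call of Pou2f3 ended without Lgr5-negative 2 (adjusted p = 0.0507).

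The taste-like cascade of tuft cells runs from receptors through a G protein and phospholipase C to the cation channel encoded by Trpm5. Trpm5 was at 60059, 117474 and 75025 normalized counts in EpCAM-high, against 5389.8, 2959.7 and 4639 in Lgr5-negative libraries (difference 4.27, SE 0.63, limma adjusted p = 0.00221). Tas1r3, a subunit of the sweet and umami receptors, was at 1298, 1985 and 1647, against 102, 53.8 and 63.5 in Lgr5-negative libraries (difference 4.50, SE 0.75, limma adjusted p = 0.00359). Each of these Lgr5-negative values lay far under the lowest EpCAM-high value. The other receptor subunit genes, Tas1r1 and Tas1r2, were under the filter. Tas1r1 was at 0 in all EpCAM-high libraries and at 4.59, 4.68 and 9.07 in Lgr5-negative libraries, and Tas1r2 at 0 in all of them. The taste cell genes Gnb3 and Itpr3 fell, with values given under Other observations. The G protein gamma subunit gene Gng13 rose by 3.81 log2 units (limma adjusted p = 0.000583) and the phospholipase gene Plcb2 by 3.04 (limma adjusted p = 0.0185). The alpha subunit gene Gnat3 did not pass the test: it was at 1815, 3783 and 1057 in EpCAM-high, against 312, 459.9 and 2659 in Lgr5-negative libraries (difference 1.41, limma adjusted p = 0.334). Lgr5-negative 3 was the highest of its group in Gnat3 and overlapped the EpCAM-high values. The same library held most of the Lgr5-negative signal of Rgs13, a regulator of G protein signalling, at 309, 512 and 253 in EpCAM-high, against 21.4, 16.4 and 378 in Lgr5-negative libraries (difference 2.70, limma adjusted p = 0.225). The call of Plcb2 ended without EpCAM-high 2, EpCAM-high 3, Lgr5-negative 2 or Lgr5-negative 3 (adjusted p = 0.0524 to 0.0724).

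Several genes of released products and of the enzymes that make them rose. Il25, the cytokine by which intestinal tuft cells act on innate lymphoid cells, was at 887, 873 and 977 in EpCAM-high, against 62.7, 24.6 and 23.8 in Lgr5-negative libraries (difference 4.73, SE 1.12, limma adjusted p = 0.0158). Chat, the acetylcholine-synthesizing enzyme, was at 310.0, 362 and 619.6, against 16.8, 10.5 and 18.1 in Lgr5-negative libraries (difference 4.71, SE 0.95, limma adjusted p = 0.00805). For both genes the Lgr5-negative libraries had few counts and did not overlap with EpCAM-high. Of leukotriene synthesis, Alox5 was at 39065, 56469 and 37929 in EpCAM-high, against 5889.6, 2784 and 3419 in Lgr5-negative libraries (difference 3.51, limma adjusted p = 0.00389), Alox5ap rose by 4.04 log2 units (limma adjusted p = 0.00115) and Ltc4s by 3.94 (limma adjusted p = 0.00106). Lta4h, whose product makes leukotriene B4, went the other way, at 2742, 1432 and 1363 in EpCAM-high, against 3811, 3841 and 3308 in Lgr5-negative libraries (difference -1.06, limma adjusted p = 0.0263), a call that ended without any 1 library other than EpCAM-high 1 (adjusted p = 0.0632 to 0.097). Of prostaglandin synthesis, Ptgs1 rose by 3.46 (limma adjusted p = 0.0122) and Hpgds by 3.59 (limma adjusted p = 0.0243), and Ptgs2, outside the list, rose by 5.14 (limma adjusted p = 0.0189), a call that ended without any 1 library other than Lgr5-negative 1 (adjusted p = 0.0501 to 0.0806). The prostaglandin E synthase genes Ptges (difference -0.65, limma adjusted p = 0.64) and Ptges2 (difference 0.01, limma adjusted p = 0.981), the thromboxane synthase gene Tbxas1 (difference -0.34, limma adjusted p = 0.784) and the phospholipase gene Pla2g4a (difference 0.93, limma adjusted p = 0.436) did not pass. The call of Il25 ended without EpCAM-high 2, Lgr5-negative 2 or Lgr5-negative 3 (adjusted p = 0.0522 to 0.0636), that of Ptgs1 without Lgr5-negative 2 (adjusted p = 0.0539) and that of Hpgds without any 1 library other than Lgr5-negative 3 (adjusted p = 0.0534 to 0.0961).

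The remaining risen members encode kinases, adaptors, receptors and a phospholipase (Plcg2) known from both tuft cells and leukocytes. Cd300lf, a cell surface receptor, rose by 4.62 log2 units (limma adjusted p = 0.00203), the adaptor gene Sh2d6 by 3.74 (limma adjusted p = 0.00166) and the Tec family kinase gene Bmx by 3.54 (limma adjusted p = 0.0026). Il17rb, which encodes a subunit of the interleukin 25 receptor, rose by 3.31 (limma adjusted p = 0.00168) and Plcg2 by 2.63 (limma adjusted p = 0.000641). Sucnr1, the receptor for succinate, was under the filter, at 0, 6.87 and 0 in EpCAM-high and 9.17, 3.51 and 2.27 in Lgr5-negative libraries. When 1 library was left out, 18 to 22 list members passed, and 18 held in every such fit. Against the EpCAM-low sort all 25 tested members were higher in EpCAM-high cells by the test between these sorts, where 17.5% of all genes were higher. That test uses the same EpCAM-high libraries, so it is not independent of the rises over Lgr5-negative cells.

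**Figure D2:**
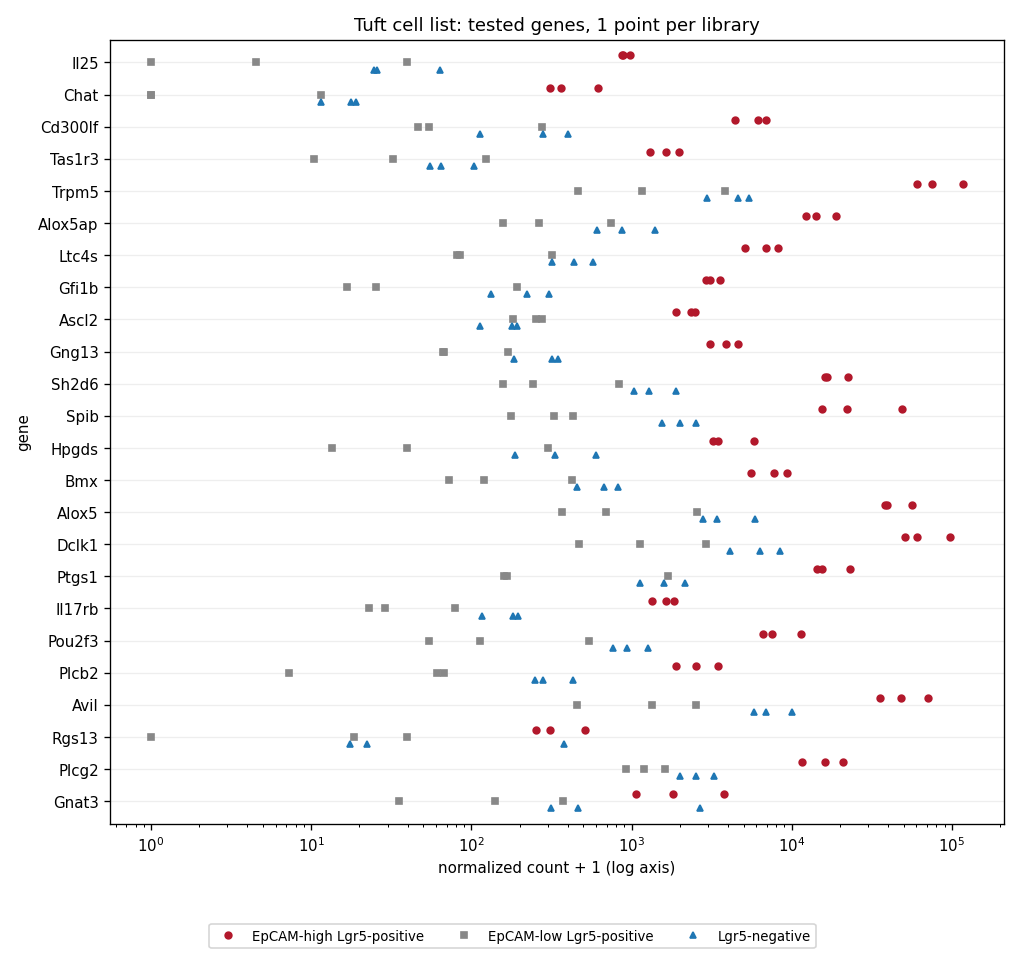
Normalized count + 1 (log axis) of 24 of the 25 tested tuft cell genes in EpCAM-high, EpCAM-low and Lgr5-negative corpus libraries, 1 point per library, ordered by log2 fold change. EpCAM-high points lie to the right of the Lgr5-negative points for the 22 plotted genes that rose and overlap for Rgs13 and Gnat3, and EpCAM-low points lie mostly to the left of the Lgr5-negative ones.

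Promoter windows of GRCm38.p6 (RefSeq), 250 bases before to 50 bases after the gene start, were searched on both strands for the octamer ATGCAAAT that POU factors are known to bind, a motif chosen after the values were seen. It occurs in 1.75% of all 27025 promoters. Of the 23 risen tuft genes 19 had a promoter in the table and 1 of these, that of Hpgds, held it, 174 bases before the gene start. Its window (chr6:65144681-65144980, minus strand) is shown because it holds this match, in capitals:
Hpgds promoter: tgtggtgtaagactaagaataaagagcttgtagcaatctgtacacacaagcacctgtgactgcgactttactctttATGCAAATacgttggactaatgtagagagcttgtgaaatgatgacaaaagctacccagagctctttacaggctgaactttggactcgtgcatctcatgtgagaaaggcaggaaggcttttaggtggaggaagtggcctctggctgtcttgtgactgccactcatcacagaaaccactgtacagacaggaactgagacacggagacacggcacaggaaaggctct

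Wnt targets and feedback regulators gave calls in both directions. Of 30 listed genes 25 were tested, 7 rose and 3 fell, beside 10.7% of all genes that rose and 10.5% that fell, with a median log2 fold change of 0.53. The risen genes were Lgr5, Nkd1, Ascl2, Dkk3, Tcf7, Ephb2 and Sox9. Lgr5 is the gene of the sort, so its rise is a check and not a result. Ascl2 was at 1899.6, 2493 and 2348 in EpCAM-high, against 191, 112 and 178 in Lgr5-negative libraries, without overlap. Dkk3, a secreted protein related to the Dickkopf Wnt inhibitors, had 254 reads in all in EpCAM-high libraries and 2 in Lgr5-negative libraries, a ratio of levels of 116 (exact 95% interval 31.6 to 959). Sox9, a transcription factor of progenitor cells in the gut, was at 16919, 26820.0 and 21265 in EpCAM-high, against 13169, 8059 and 9243 in Lgr5-negative libraries (difference 1.10, limma adjusted p = 0.0121). The call of Sox9 ended without Lgr5-negative 2 or Lgr5-negative 3 (adjusted p = 0.0537 to 0.0614), that of Tcf7 without any 1 of the 6 libraries (adjusted p = 0.0597 to 0.116) and that of Ephb2 without any 1 library other than EpCAM-high 1 (adjusted p = 0.077 to 0.121). Dkk3 was not tested without any 1 EpCAM-high library because it fell under the filter there. This left 4 to 5 risen genes when 1 library was left out (4 without EpCAM-high 2, EpCAM-high 3, Lgr5-negative 2 or Lgr5-negative 3).

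Several genes read as general Wnt reporters did not pass. Axin2, a negative feedback regulator induced in most Wnt-responsive tissues, was at 47.2, 84.8 and 32.8 in EpCAM-high and 24.5, 19.9 and 18.1 in Lgr5-negative libraries (difference 1.26, limma adjusted p = 0.204). Its groups did not overlap, as for 23.0% of all genes tested in this direction, so not passing does not show an absence of change. The ubiquitin ligases that remove Wnt receptors did not pass either, with log2 fold changes of 0.53 for Rnf43 (limma adjusted p = 0.208) and -0.12 for Znrf3 (limma adjusted p = 0.788). The 3 that fell were Myc, Ccnd1 and Cdca7. Myc was at 930.0, 377 and 402 in EpCAM-high, against 3153, 2233 and 2668 in Lgr5-negative libraries (difference -2.35, SE 0.33, limma adjusted p = 0.0018). Cyclin D1 (Ccnd1) fell by 1.65 on the log2 scale (limma adjusted p = 0.00286) and Cdca7, a Myc-responsive gene, fell by 2.70 (limma adjusted p = 0.00948). All 3 had higher values in each Lgr5-negative library than in any EpCAM-high library, and their calls held without any 1 library.

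Of the Wnt ligands, receptors and R-spondins, 23 of 34 were tested, and 1 rose and 5 fell. Wnt5a, a ligand known mainly for signalling that does not act through beta-catenin, was at 1411, 2003 and 1302 in EpCAM-high, against 48.9, 26.9 and 14.7 in Lgr5-negative libraries (difference 5.79, SE 0.59, limma adjusted p = 0.000583). Ror2, a receptor for Wnt5a, went the other way, at 40.8, 48.1 and 40.1, against 306, 453 and 298 in Lgr5-negative libraries (difference -2.98, SE 0.35, limma adjusted p = 0.000801). In both genes the groups lay far apart and the calls held without any 1 library. The other falls were those of Wnt4 (-3.21), Wnt11 (-2.38), Rspo4 (-4.89) and Porcn (-1.08), the enzyme that attaches a lipid to Wnt ligands. These 4 calls did not all hold: Wnt4 ended without any 1 library other than EpCAM-high 3 (adjusted p = 0.0741 to 0.147), Wnt11 without any 1 library other than EpCAM-high 3 (adjusted p = 0.0545 to 0.102), Rspo4 without Lgr5-negative 1, Lgr5-negative 2 or Lgr5-negative 3 (adjusted p = 0.0637 to 0.0968) and Porcn without EpCAM-high 1, Lgr5-negative 1 or Lgr5-negative 2 (adjusted p = 0.0619 to 0.0934). The number that fell was 3 without EpCAM-high 2, 1 without Lgr5-negative 1 or Lgr5-negative 2 and 2 without Lgr5-negative 3. None of the 9 Frizzled genes tested passed (Fzd4 did with the sort day as a block, limma adjusted p = 0.0105), and neither did the coreceptor genes Lrp5 (difference -0.12, limma adjusted p = 0.811) and Lrp6 (difference -0.13, limma adjusted p = 0.612).

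The TCF/LEF motif, taken as CTTTG followed by A or T at each of the next 2 bases, on either strand, occurs in 16.9% of the 27025 promoter windows. Of the 7 risen members of the Wnt target list 4 had a promoter in the table, and none of these 4 held it. The window of Nkd1 (GRCm38.p6, RefSeq, chr8:88527383-88527682, plus strand) is shown as that of a risen Wnt feedback regulator, and no base is in capitals since no match was found:
Nkd1 promoter: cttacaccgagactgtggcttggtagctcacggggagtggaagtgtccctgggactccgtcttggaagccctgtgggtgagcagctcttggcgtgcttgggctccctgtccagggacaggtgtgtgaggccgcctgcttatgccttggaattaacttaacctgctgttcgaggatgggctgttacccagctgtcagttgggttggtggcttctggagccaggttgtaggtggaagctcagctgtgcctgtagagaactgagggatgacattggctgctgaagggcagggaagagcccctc

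Genes of the Lgr5 stem cell signature of the intestine did not rise as a group. Of 25 tested, 3 rose (Lgr5, Ascl2 and Sox9) and 6 fell, with a median of -0.12. Here too the rise of Lgr5, the gene of the sort, is a check. Olfm4, an abundant marker of intestinal crypt stem cells, was at 89.0, 9.16 and 275 in EpCAM-high and 39.7, 76.1 and 55.6 in Lgr5-negative libraries (difference 0.17, limma adjusted p = 0.926). Smoc2 was at 305, 569 and 301 in EpCAM-high and 278, 415 and 202 in Lgr5-negative libraries (difference 0.39, limma adjusted p = 0.651). Neither gene separated the groups. The falls that held without any 1 library were those of the vitamin D receptor gene Vdr (difference -4.91, limma adjusted p = 0.00394), Cdca7, the growth factor receptor inhibitor Lrig1 (difference -1.31, limma adjusted p = 0.00379) and the chloride cotransporter gene Slc12a2 (difference -1.15, limma adjusted p = 0.00199). The call of Cdk6 ended without any 1 of the 6 libraries (adjusted p = 0.0619 to 0.17) and with the sort day as a block (limma adjusted p = 0.0649), and that of Sorbs2 ended without any 1 library other than EpCAM-high 1 (adjusted p = 0.0762 to 0.0838).

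Among 20 proposed isthmus and reserve stem cell markers, 6 rose and 7 fell, beside 10.7% and 10.5% of all genes, with a median of 0.02. Hopx, a homeodomain protein proposed to mark slow-cycling intestinal stem cells, was at 2066, 3273 and 2285 in EpCAM-high, against 153, 93.6 and 82.8 in Lgr5-negative libraries (difference 4.54, SE 0.47, limma adjusted p = 0.000583). Runx1, a transcription factor, was at 2683, 4470.2 and 2952, against 1360.4, 1266 and 1678 in Lgr5-negative libraries (difference 1.20, limma adjusted p = 0.00509). The actin bundling protein gene Vil1 rose by 2.13 (limma adjusted p = 0.000754), and Dclk1, given above, is on this list too. These 4 separated the groups and held without any 1 library. Sox2, the foregut transcription factor, was at 511, 955 and 520.0 in EpCAM-high, against 400.5, 269 and 272 in Lgr5-negative libraries (difference 1.03, limma adjusted p = 0.032), and its call ended without EpCAM-high 2, Lgr5-negative 2 or Lgr5-negative 3 (adjusted p = 0.101 to 0.123). Bmi1 rose by 0.82 (limma adjusted p = 0.0474), a call that ended without any 1 library other than EpCAM-high 3 (adjusted p = 0.0889 to 0.158).

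The falls on that list included markers of several corpus compartments. Cckbr, the gastrin receptor, was at 203, 133 and 284 in EpCAM-high, against 1732, 1806 and 1344 in Lgr5-negative libraries (difference -3.03, SE 0.32, limma adjusted p = 0.000595). Clu, which encodes the secreted chaperone clusterin, was at 44875, 31374 and 30844, against 128768, 130442 and 124974 in Lgr5-negative libraries (difference -1.87, SE 0.22, limma adjusted p = 0.000917). Stmn1, a microtubule regulator of dividing cells, was at 481, 173 and 211, against 1411, 880.1 and 987 in Lgr5-negative libraries (difference -2.04, limma adjusted p = 0.00543). In all 3 genes each EpCAM-high library lay under each Lgr5-negative library. The other falls were Lrig1, Mki67, Tert and Krt19. Krt19 fell by 1.14 on the log2 scale, with its call lost without any 1 library other than EpCAM-high 1 (adjusted p = 0.0716 to 0.0958), and Tert by 3.46, lost without EpCAM-high 2 or EpCAM-high 3 (adjusted p = 0.0593 to 0.0634). The number of falls was 4 without Lgr5-negative 2 or Lgr5-negative 3. Neither of the chief cell and isthmus markers Bhlha15 (difference -0.30, limma adjusted p = 0.632) and Iqgap3 (difference -3.23, limma adjusted p = 0.179) passed.

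Most endocrine granule transcripts fell. Of 25 tested granule and processing genes 15 fell and 2 rose, with a median of -3.50 beside -0.06 over all genes, where 10.5% of all genes fell and 10.7% rose. Chromogranin B (Chgb) was at 189.9, 807 and 1051 in EpCAM-high, against 7953, 19009 and 9701 in Lgr5-negative libraries (difference -4.38, SE 0.71, limma adjusted p = 0.00321). The prohormone convertase gene Pcsk1 was at 131, 364 and 142, against 2013, 3913 and 1656 in Lgr5-negative libraries (difference -3.63, SE 0.47, limma adjusted p = 0.00129). The vesicle GTPase gene Rab3c was at 54.7, 63.0 and 55.9, against 708, 1118 and 923 in Lgr5-negative libraries (difference -3.94, SE 0.68, limma adjusted p = 0.00419). No EpCAM-high library reached a Lgr5-negative library in these genes, and EpCAM-high 1 was the lowest for Chgb and Pcsk1. Resp18, Scg5, Rimbp2 and Syt7 also fell and held without any 1 library. Summed over the list, normalized counts ran from 46260.5 to 63868.1 in EpCAM-high libraries, against 177646 to 295817.9 in Lgr5-negative libraries. Chga made up most of the Lgr5-negative sums, and Cpe, which rose, was the largest part of the EpCAM-high sums.

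Against this direction, 2 members of the list rose. Cpe, carboxypeptidase E, which trims prohormones, was at 34763, 35429 and 29780.4 in EpCAM-high, against 7441, 10699 and 6350.4 in Lgr5-negative libraries (difference 2.06, SE 0.40, limma adjusted p = 0.00727). Rab3b, a GTPase of secretory vesicles, was at 3151, 5345 and 4379.8, against 405, 382 and 362 in Lgr5-negative libraries (difference 3.45, SE 0.54, limma adjusted p = 0.00271). Both were high in every EpCAM-high library and held without any 1 library. The number of granule genes that fell was 8 without Lgr5-negative 2. The call of Scg2 ended without any 1 library other than EpCAM-high 3 (adjusted p = 0.0636 to 0.0952), that of Pcsk2 without any 1 library other than EpCAM-high 3 (adjusted p = 0.0526 to 0.117) and that of Pcsk1n without Lgr5-negative 2 (adjusted p = 0.0596). That of Syp ended without EpCAM-high 2, Lgr5-negative 1 or Lgr5-negative 2 (adjusted p = 0.0533 to 0.0759), that of Syt13 without Lgr5-negative 1 or Lgr5-negative 2 (adjusted p = 0.055 to 0.065) and that of Ptprn without Lgr5-negative 1 or Lgr5-negative 2 (adjusted p = 0.0544 to 0.065). The call of Snap25 ended without any 1 library other than EpCAM-high 3 (adjusted p = 0.0833 to 0.141) and with the sort day as a block (limma adjusted p = 0.0552).

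Hormone genes gave 9 falls and 1 rise among 17 tested, with a median of -2.87. Ghrl, which encodes ghrelin, was at 1700.1, 4788 and 8601 in EpCAM-high, against 43540.2, 82857 and 64101 in Lgr5-negative libraries (difference -3.90, SE 0.51, limma adjusted p = 0.00129). Proglucagon (Gcg) was at 0 in all 3 EpCAM-high libraries, against 2427, 3716 and 1042 in Lgr5-negative libraries, at least 698-fold lower against a floor of 3 reads per library. Ghrl was lowest in EpCAM-high 1 and stayed abundant in the other EpCAM-high libraries, whereas no proglucagon read was found there. Iapp was at 0 in EpCAM-high, against 12.2, 63.2 and 26.1 in Lgr5-negative libraries (at least 9.86-fold lower). Pyy, an appetite-suppressing peptide of the distal gut, was at 0, 16.0 and 2.43, against 228, 304 and 227 in Lgr5-negative libraries (difference -6.02, limma adjusted p = 0.00958). Somatostatin (Sst) did not pass, at 697, 5496 and 11309.8 in EpCAM-high and 28059, 69351 and 25699 in Lgr5-negative libraries (difference -3.39, limma adjusted p = 0.117, and 0.0355 with the sort day as a block). Secretin (Sct) was the hormone gene that rose, at 1289, 1665 and 1489.5, against 71.8, 25.7 and 44.2 in Lgr5-negative libraries (difference 5.05, SE 0.69, limma adjusted p = 0.00155).

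Genes of amine synthesis and storage were among the falls. Hdc, the histamine-synthesizing enzyme of enterochromaffin-like cells, was at 1038, 1445 and 1364 in EpCAM-high, against 18274, 23972 and 10621 in Lgr5-negative libraries (difference -3.72, SE 0.44, limma adjusted p = 0.000844). The vesicular monoamine transporter gene Slc18a2 was at 528, 790.5 and 919.7, against 9116, 11839.9 and 9269 in Lgr5-negative libraries (difference -3.78, SE 0.49, limma adjusted p = 0.00127). Both were low in each EpCAM-high library and did not overlap with Lgr5-negative. Ddc, which decarboxylates amine precursors, fell by 2.65 on the log2 scale (limma adjusted p = 0.00102). Tph1, which makes the serotonin of tissues other than the brain, had 1 read in EpCAM-high and 142 in Lgr5-negative libraries, a ratio of levels (Lgr5-negative over EpCAM-high) of 156 (exact 95% interval 27.6 to 6209). The number of hormone and amine genes that fell was 5 without Lgr5-negative 1 or Lgr5-negative 2, where Gcg, Iapp and Tph1 were not tested because they fell under the filter. The call of Maob ended without EpCAM-high 1, EpCAM-high 2, Lgr5-negative 1 or Lgr5-negative 2 (adjusted p = 0.0667 to 0.107).

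Of 17 tested endocrine transcription factors 8 fell and 3 rose, with a median of -1.15. Insm1 was at 41.8, 65.3 and 92.3 in EpCAM-high, against 809, 903 and 735 in Lgr5-negative libraries (difference -3.66, limma adjusted p = 0.0113). Pax6 was at 0 in all EpCAM-high libraries, against 19.9, 33.9 and 21.5 in Lgr5-negative libraries (at least 7.32-fold lower). Myt1 was also at 0, against 15.3, 59.7 and 47.6 in Lgr5-negative libraries (at least 11.9-fold lower). Neurod1, a differentiation factor of endocrine cells, did not pass, at 0, 6.87 and 68.0 in EpCAM-high and 141, 199 and 111 in Lgr5-negative libraries (difference -4.17, limma adjusted p = 0.101), and Neurog3 was under the filter. The 3 rises numbered 1 without EpCAM-high 2 or any 1 Lgr5-negative library, and the 8 falls 5 without EpCAM-high 1, 1 without Lgr5-negative 1 or Lgr5-negative 3 and 0 without Lgr5-negative 2, with Pax6 and Myt1 untested without any 1 Lgr5-negative library. The call of Insm1 ended without Lgr5-negative 2 (adjusted p = 0.0532).

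**Figure D3:**
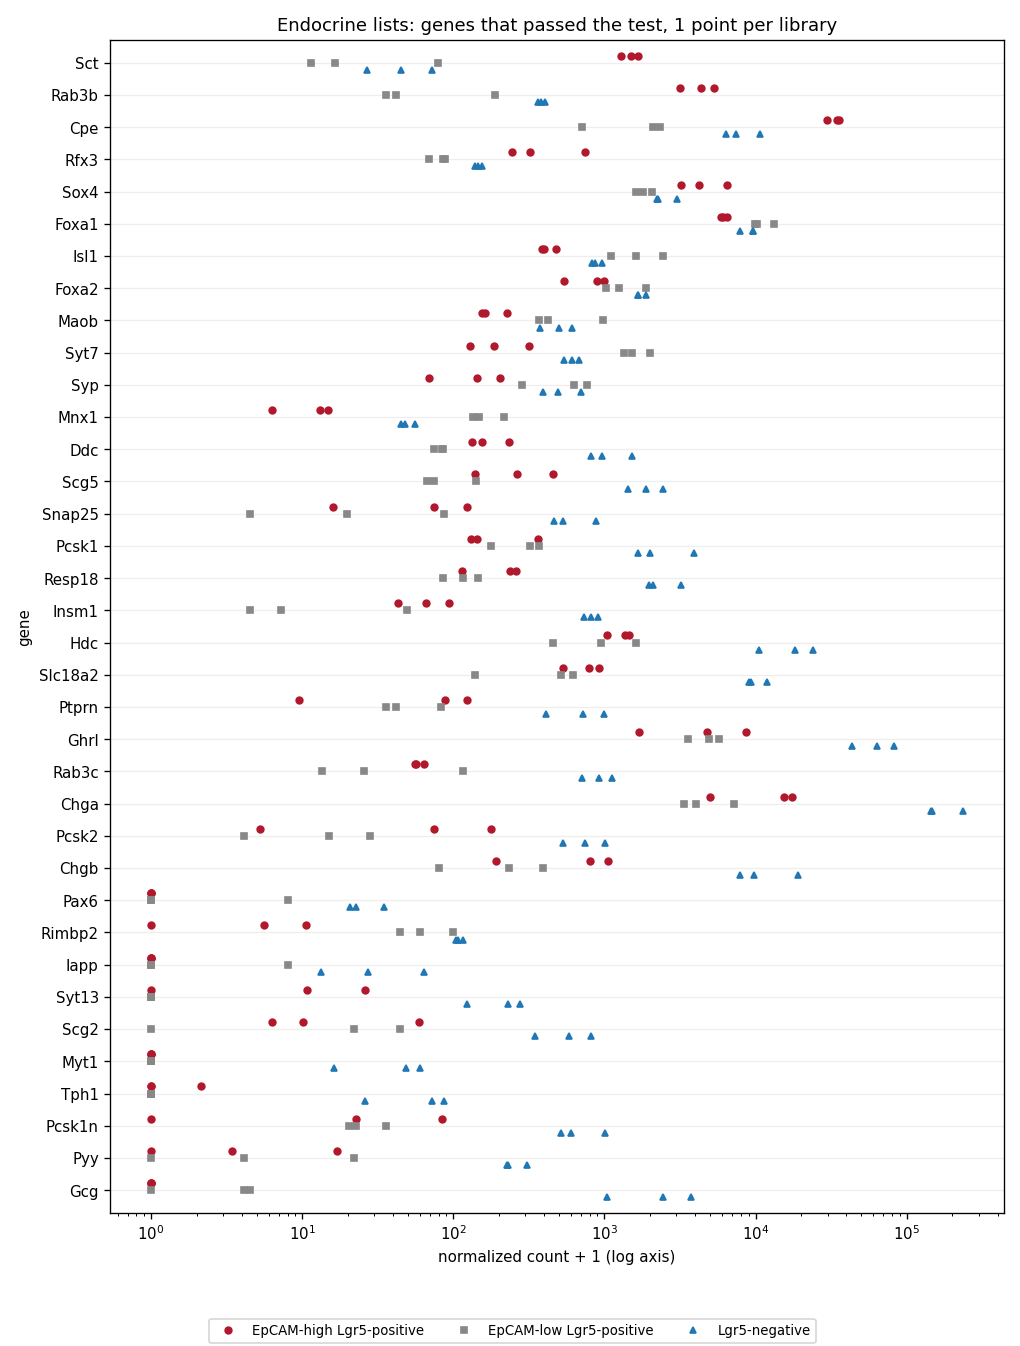
Normalized count + 1 (log axis) of endocrine hormone, granule and transcription factor genes that passed the test, 1 point per library in EpCAM-high, EpCAM-low and Lgr5-negative corpus cells, ordered from the largest rise at the top to the largest fall at the bottom. Sct, Rab3b and Cpe lie higher in EpCAM-high libraries, and the genes from Ddc downward lie far lower there than in Lgr5-negative libraries, with Gcg at 0 in EpCAM-high and at 2427, 3716 and 1042 in Lgr5-negative libraries.

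Chief cell genes showed no common direction. Of 18 tested, 2 rose and 3 fell, beside 10.7% and 10.5% of all genes, with a median of -0.08. Pepsinogen C (Pgc), the most abundant transcript here, was at 4992513, 5647738 and 7947818 in EpCAM-high and 8701319.9, 10293372 and 7735987 in Lgr5-negative libraries (difference -0.54, limma adjusted p = 0.322). It took 16.5 to 22.8% of the reads in EpCAM-high and 24.4 to 29.1% in Lgr5-negative libraries. Gif, the gastric intrinsic factor gene, was at 108310.0, 123581 and 139788 in EpCAM-high and 82359, 119461 and 59875 in Lgr5-negative libraries (difference 0.56, limma adjusted p = 0.263). The pancreatic-type lipase cofactor Clps (difference -0.19, limma adjusted p = 0.743) and phospholipase Pla2g1b (difference 0.02, limma adjusted p = 0.974) did not pass either. The falls were those of Pnliprp1, a lipase-related protein, at 2788, 4157 and 3005 in EpCAM-high, against 29209.7, 39083 and 25440.2 in Lgr5-negative libraries (difference -3.23, SE 0.45, limma adjusted p = 0.00166), Dmbt1 (difference -2.80, limma adjusted p = 0.00626) and pepsinogen A (Pga5, difference -1.98, limma adjusted p = 0.0112). The acidic chitinase Chia1 was at 1096282, 1177336 and 1075629 in EpCAM-high, against 349971, 633539 and 341047 in Lgr5-negative libraries (difference 1.40, limma adjusted p = 0.0262). The calls of Chia1, Rnase1 and Pga5 ended without any 1 library other than Lgr5-negative 2 (adjusted p = 0.061 to 0.11), without EpCAM-high 1, EpCAM-high 3, Lgr5-negative 1 or Lgr5-negative 3 (adjusted p = 0.089 to 0.124) and without Lgr5-negative 2 (adjusted p = 0.0533). The number that rose was 0 without EpCAM-high 1, EpCAM-high 3, Lgr5-negative 1 or Lgr5-negative 3 and 1 without EpCAM-high 2.

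Of 12 mucous neck cell genes 6 fell and 2 rose, with a median of -1.70. Muc6, the gland mucin, was at 2805, 2180.1 and 3384 in EpCAM-high, against 17949, 15632 and 19466 in Lgr5-negative libraries (difference -2.68, SE 0.44, limma adjusted p = 0.00337). Tff2, the trefoil peptide secreted with it, was at 32239, 15718 and 20684, against 75981, 75109.6 and 127139 in Lgr5-negative libraries (difference -2.04, SE 0.41, limma adjusted p = 0.00817). Both were lower in every EpCAM-high library. The glycosyltransferase genes A4gnt (difference -1.82, limma adjusted p = 0.00666) and Galnt6 (difference -2.74, limma adjusted p = 0.00288), Cxcl17 (difference -1.95, limma adjusted p = 0.00843) and Wfdc2 (difference -1.58, limma adjusted p = 0.00473) fell too, and the 6 falls held without any 1 library. The risen members were lactoferrin (Ltf), at 533, 1237 and 1016 in EpCAM-high, against 0, 5.85 and 4.54 in Lgr5-negative libraries (difference 8.03, SE 1.02, limma adjusted p = 0.00119), and the sodium-proton exchanger gene Slc9a9 (difference 3.77, SE 0.31, limma adjusted p = 0.00026). The number that rose was 1 without any 1 EpCAM-high library, where Ltf was not tested because it fell under the filter.

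Pit cell and parietal cell genes mostly did not pass. Of 18 pit cell genes none rose and 2 fell (4 with the sort day as a block): Foxq1, a transcription factor, was at 2924, 1394 and 1347 in EpCAM-high, against 6351, 6559.5 and 7989 in Lgr5-negative libraries (difference -1.97, SE 0.33, limma adjusted p = 0.0037), and Vsig1 fell by 1.29 on the log2 scale, a call lost without any 1 library other than EpCAM-high 1 (adjusted p = 0.0815 to 0.0983). The surface mucin gene Muc5ac was at 7610.3, 6162 and 10701 in EpCAM-high and 24593, 36836 and 77009 in Lgr5-negative libraries (difference -2.37, limma adjusted p = 0.0665, and 0.0267 with the sort day as a block). The gastrokine genes Gkn1 (difference -0.73, limma adjusted p = 0.365) and Gkn2 (difference -0.92, limma adjusted p = 0.591) did not pass. The falls of the pit cell list numbered 1 without any 1 library other than EpCAM-high 1. Of 22 parietal cell genes 1 rose and 2 fell, beside 10.7% and 10.5% of all genes. The rises were 3 without EpCAM-high 2, and the falls were 1 without Lgr5-negative 2 or Lgr5-negative 3. The proton pump gene Atp4a was at 142973, 28383 and 382528 in EpCAM-high and 51325, 42650.2 and 37681 in Lgr5-negative libraries (difference 1.41, limma adjusted p = 0.227), with EpCAM-high 2 under the Lgr5-negative values and EpCAM-high 3 far over them. Kcnq1, the potassium channel that supports acid secretion, was at 3801, 6201 and 7557, against 1380.3, 1482 and 1450.4 in Lgr5-negative libraries (difference 1.97, limma adjusted p = 0.00217). The exchanger gene Slc9a4 fell (difference -1.57, limma adjusted p = 0.00805) and so did Kcnj15 (difference -1.002, limma adjusted p = 0.0148), whose call ended without Lgr5-negative 2 or Lgr5-negative 3 (adjusted p = 0.064 to 0.0654).

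Most cell cycle genes were called lower in EpCAM-high cells. Of 30 S phase genes 22 fell and none rose (median -1.77), and of 30 genes of G2 and M phase 20 fell and none rose (median -2.73), beside 10.5% of all genes falling. Ribonucleotide reductase subunit Rrm2 was at 652, 244 and 153 in EpCAM-high, against 2048, 1416 and 1659 in Lgr5-negative libraries (difference -2.54, SE 0.45, limma adjusted p = 0.00475). Uhrf1, which keeps DNA methylation through replication, was at 169, 133 and 106, against 1081, 813 and 801 in Lgr5-negative libraries (difference -2.73, SE 0.45, limma adjusted p = 0.00333). Cyclin A2 (Ccna2) was at 804, 178 and 157, against 2354, 2091 and 2536 in Lgr5-negative libraries (difference -3.04, SE 0.63, limma adjusted p = 0.00937). All 3 genes were lower in every EpCAM-high library, and EpCAM-high 1 was the closest to the Lgr5-negative values in each. Summed over the G2 and M list, EpCAM-high libraries held 3099.3, 3684.3 and 12506.9 normalized counts from lowest to highest, against 26499, 33576.9 and 35058.8 in Lgr5-negative libraries.

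The helicase genes Mcm4, Mcm5, Mcm6 and Mcm7 fell and held without any 1 library, with log2 fold changes of -1.72, -2.28, -2.26 and -1.54. Mki67, the antigen read by the Ki-67 antibody, was at 0, 20.6 and 29.2 in EpCAM-high, against 142, 431 and 1106 in Lgr5-negative libraries (difference -5.56, limma adjusted p = 0.0157), and its call ended without Lgr5-negative 2 or Lgr5-negative 3 (adjusted p = 0.0603 to 0.0693). Pcna, a replication clamp that is also used in repair, did not pass, at 798, 714 and 509 in EpCAM-high and 1027, 798 and 864 in Lgr5-negative libraries (difference -0.43, limma adjusted p = 0.196). The falls of the S phase list numbered 12 to 19 when 1 library was left out (12 without Lgr5-negative 1 and 13 without Lgr5-negative 2 or Lgr5-negative 3), and those of the G2 and M phase list 13 to 22 (13 without Lgr5-negative 3). Without EpCAM-high 1 the falls numbered 19 in the S phase list and 22 in the G2 and M phase list. In each list 10 falls held without any 1 library. Against EpCAM-low cells 1 S phase gene was higher and 1 lower in EpCAM-high, and 5 of the G2 and M genes were higher, where 17.5% of all genes were higher and 14.3% lower. The falls were not particular to EpCAM-high cells. In EpCAM-low against the same Lgr5-negative libraries 21 S phase genes (median -1.61) and 29 G2 and M genes (median -3.46) were lower, beside 18.0% of all genes.

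Of 25 ribosome biogenesis genes 15 fell and none rose, with a median of -1.08. Fibrillarin (Fbl), which methylates ribosomal RNA, was at 475, 316 and 468 in EpCAM-high, against 1215, 848 and 873 in Lgr5-negative libraries (difference -1.22, SE 0.24, limma adjusted p = 0.00721). The RNA polymerase I subunit gene Polr1b was at 437, 408 and 361, against 1088, 1132 and 822 in Lgr5-negative libraries (difference -1.32, SE 0.27, limma adjusted p = 0.00801). The groups did not overlap for either gene. Npm1 (difference -0.90, limma adjusted p = 0.00772), Polr1a (difference -1.47, limma adjusted p = 0.00191) and Utp20 (difference -2.45, limma adjusted p = 0.00801) held without any 1 library as well, as did Myc, which is on this list too. The count that fell was 6 to 14 when 1 library was left out (8 without Lgr5-negative 1, 6 without Lgr5-negative 2 and 7 without Lgr5-negative 3). Of 27 oxidative phosphorylation genes 2 rose (4 with the sort day as a block), Ndufa1 (difference 1.43, limma adjusted p = 0.00115) and Cox6c (difference 1.23, limma adjusted p = 0.0387), and the call of Cox6c ended without any 1 of the 6 libraries (adjusted p = 0.0524 to 0.122), which left 1 rise in each of these fits.

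**Figure D4:**
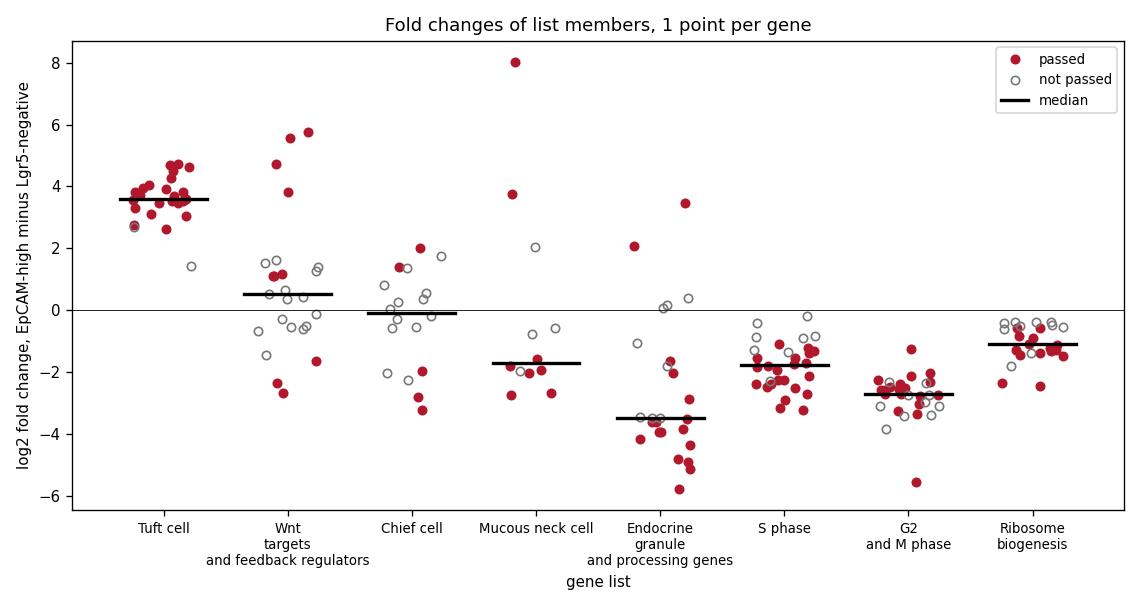
Log2 fold change (EpCAM-high minus Lgr5-negative) of each tested gene in 8 lists, with filled points for genes that passed the test, open points for the others and a black bar at the median. The tuft cell list lies wholly above 0 (median 3.59), the S phase, G2 and M phase and ribosome biogenesis lists lie wholly below 0 (medians -1.77, -2.73 and -1.08), and the Wnt target and chief cell lists spread to both sides.

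Notch pathway genes went both ways, with 5 up and 4 down of 20 tested, beside 10.7% and 10.5% of all genes. The glycosyltransferase gene Lfng, which modifies Notch receptors, was at 784, 855 and 916 in EpCAM-high, against 246, 128 and 177 in Lgr5-negative libraries (difference 2.26, SE 0.37, limma adjusted p = 0.00347). The ligand gene Dll1 was at 392, 448 and 527, against 24.5, 46.8 and 52.2 in Lgr5-negative libraries (difference 3.50, limma adjusted p = 0.0404). Hes1, a target of Notch, was at 1659, 944 and 879.6, against 2929, 3052 and 3403 in Lgr5-negative libraries (difference -1.49, SE 0.26, limma adjusted p = 0.00469). Lfng and Hes1 separated the groups and held without any 1 library. The ligand Jag2 rose (difference 1.79, limma adjusted p = 0.0123) and Jag1 fell (difference -2.10, limma adjusted p = 0.0175), and these calls ended without EpCAM-high 2 or Lgr5-negative 1 (adjusted p = 0.0526 to 0.056) and without EpCAM-high 2, Lgr5-negative 1 or Lgr5-negative 3 (adjusted p = 0.0638 to 0.0695). That of Dll1 ended without any 1 of the 6 libraries (adjusted p = 0.0828 to 0.131). Notch3 had 2 reads in EpCAM-high and 56 in Lgr5-negative libraries, a ratio of levels (Lgr5-negative over EpCAM-high) of 30.8 (exact 95% interval 8.13 to 260.4), and its call ended without any 1 of the 6 libraries (adjusted p = 0.0514 to 0.133). The number that rose was 1 without EpCAM-high 2, 3 without EpCAM-high 3 and 2 without any 1 Lgr5-negative library, and the number that fell was 2 without EpCAM-high 1 or Lgr5-negative 2 and 1 without EpCAM-high 2, Lgr5-negative 1 or Lgr5-negative 3.

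In the BMP and TGF-beta pathway 1 of 28 tested genes rose and 7 fell, beside 10.7% and 10.5% of all genes. Bmp2, a ligand, was at 4248, 6685 and 4625 in EpCAM-high, against 1617, 1629 and 1981 in Lgr5-negative libraries (difference 1.55, SE 0.22, limma adjusted p = 0.00181). The TGF-beta receptor genes Tgfbr2 (difference -1.004, limma adjusted p = 0.0074) and Tgfbr3 (difference -2.60, limma adjusted p = 0.00416) fell and held without any 1 library. The BMP target genes Id1 (difference -1.08, limma adjusted p = 0.0236) and Id4 (difference -2.08, limma adjusted p = 0.0143) fell, with calls lost without any 1 library other than EpCAM-high 1 (adjusted p = 0.0623 to 0.0893) and without EpCAM-high 2, Lgr5-negative 1, Lgr5-negative 2 or Lgr5-negative 3 (adjusted p = 0.0529 to 0.061). The secreted BMP antagonist gene Chrd and Ltbp1, which binds latent TGF-beta, were at 0 in all EpCAM-high libraries, at least 4.06-fold and 13.2-fold lower. The call of Chrd ended without any 1 of the 6 libraries (adjusted p = 0.0594 to 0.117). That of Ltbp1 ended without any 1 of the 6 libraries (adjusted p = 0.089 to 0.124). The number that fell was 2 without EpCAM-high 2 or any 1 Lgr5-negative library and 4 without EpCAM-high 3.

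Receptors and ligands of the EGF and FGF families gave 2 rises and 7 falls of 21 tested, beside 10.7% and 10.5% of all genes. Erbb2 was at 1345, 727 and 770.3 in EpCAM-high, against 3948, 3736 and 3524 in Lgr5-negative libraries (difference -2.03, SE 0.28, limma adjusted p = 0.00155), and Egfr at 249, 116 and 77.8, against 637, 605 and 676 in Lgr5-negative libraries (difference -2.28, SE 0.42, limma adjusted p = 0.00584). Both receptors were lower in each EpCAM-high library. The EGF receptor ligand betacellulin (Btc, difference -1.79, limma adjusted p = 0.000754), Fgfr3 (difference -2.23, limma adjusted p = 0.00178) and Fgfbp1 (difference -1.87, limma adjusted p = 0.00498) fell as well. Fgf9 rose, at 449, 520.1 and 479.9 in EpCAM-high, against 96.3, 72.6 and 80.5 in Lgr5-negative libraries (difference 2.53, SE 0.37, limma adjusted p = 0.00204), and Nrg4, a ligand of ErbB4, was at 591, 873 and 773, against 26.0, 25.7 and 38.6 in Lgr5-negative libraries (difference 4.59, limma adjusted p = 0.016). The call of Nrg4 ended without EpCAM-high 2, Lgr5-negative 1 or Lgr5-negative 2 (adjusted p = 0.0579 to 0.0609), and the number that rose was 1 without EpCAM-high 2, Lgr5-negative 1 or Lgr5-negative 2. Hedgehog genes gave 4 falls and no rise of 10, among them the ligand gene Ihh, at 1658, 601 and 1074 in EpCAM-high, against 4852, 3691 and 4291 in Lgr5-negative libraries (difference -2.05, SE 0.31, limma adjusted p = 0.00234), and the signal transducer gene Smo (difference -2.23, limma adjusted p = 0.00273). In the Hedgehog list 1 gene rose without EpCAM-high 1.

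Transcription factors of the foregut region rose in 2 and fell in 8 of 24 cases, beside 10.7% and 10.5% of all genes. Gata4 was at 7665, 8362 and 7684 in EpCAM-high, against 12259, 12200.3 and 12524 in Lgr5-negative libraries (difference -0.64, SE 0.13, limma adjusted p = 0.0074), and Sox21 at 859, 587 and 781, against 2304, 2028 and 2089 in Lgr5-negative libraries (difference -1.54, SE 0.19, limma adjusted p = 0.000909). Both separated the groups and held without any 1 library, Gata4 with a small change. The intestinal factor Cdx1 had 293 reads in EpCAM-high and 1 read in Lgr5-negative libraries, a ratio of levels of 266 (exact 95% interval 47.5 to 10562). Cdx2, the other intestinal factor of this pair, had no read in any of the 6 libraries. Of 13 tested intestinal epithelium genes 3 rose (Cdx1, Vil1 and Fabp1), and the call of Fabp1 ended without EpCAM-high 1, EpCAM-high 2, Lgr5-negative 1 or Lgr5-negative 2 (adjusted p = 0.0656 to 0.083). The number of intestinal genes that rose was 1 without EpCAM-high 1 or EpCAM-high 2. The number of foregut factors that rose was 1 without EpCAM-high 1, EpCAM-high 3, Lgr5-negative 2 or Lgr5-negative 3 and 0 without EpCAM-high 2. Cdx1 was not tested without any 1 EpCAM-high library because it fell under the filter there, which enters the counts of rises in both lists. The number that fell was 4 to 7 when 1 library was left out (5 without EpCAM-high 2 and 4 without any 1 Lgr5-negative library).

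General epithelial genes rose in 8 and fell in 3 of 21 cases, beside 10.7% and 10.5% of all genes. Epcam, a gene of the sort, is among the 8, and its rise is a check and not a result. Claudin 3 (Cldn3), a tight junction protein, was at 3512, 5715 and 4669 in EpCAM-high, against 259.9, 186 and 184 in Lgr5-negative libraries (difference 4.45, SE 0.67, limma adjusted p = 0.00236). Claudin 7 (Cldn7), which binds EpCAM, was at 4797, 6893 and 4935, against 720.0, 543 and 479.7 in Lgr5-negative libraries (difference 3.25, SE 0.46, limma adjusted p = 0.00183). The transcription factor gene Ehf was at 19255, 27494 and 14364, against 4297, 3106 and 3742 in Lgr5-negative libraries (difference 2.42, limma adjusted p = 0.00229). All 3 were higher in each EpCAM-high library. E-cadherin (Cdh1) was at 22589.6, 21759.8 and 19366 in EpCAM-high, against 42056, 38484 and 33526 in Lgr5-negative libraries (difference -0.84, SE 0.17, limma adjusted p = 0.00817), lower in each EpCAM-high library. Keratin genes differed among themselves, with Krt18 higher (difference 1.499, limma adjusted p = 0.00143), Krt8 higher (difference 0.64, limma adjusted p = 0.0281) and Krt19 lower, and the call of Krt8 ended without EpCAM-high 2, Lgr5-negative 1, Lgr5-negative 2 or Lgr5-negative 3 (adjusted p = 0.0907 to 0.114). The number that rose was 5 without Lgr5-negative 2 or Lgr5-negative 3, and the number that fell was 1 without any 1 library other than EpCAM-high 1.

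Of 25 tested laminin, collagen IV and integrin genes none rose and 10 fell. Col4a2 was at 15.0, 14.9 and 26.7 in EpCAM-high, against 268, 221 and 296 in Lgr5-negative libraries (difference -3.76, SE 0.39, limma adjusted p = 0.000582), and the laminin gene Lamb2 at 373, 414 and 694, against 2419.7, 1847 and 1896 in Lgr5-negative libraries (difference -2.10, SE 0.26, limma adjusted p = 0.00109). Lamc1 (difference -1.68, limma adjusted p = 0.00134) and Itga1 (difference -2.53, limma adjusted p = 0.00971) also held without any 1 library. The number that fell was 5 without EpCAM-high 2, 6 without EpCAM-high 3 and 4 without any 1 Lgr5-negative library. Among 17 apolipoprotein and plasma protein genes 3 rose (Fcna, Cfb and C3) and 6 fell, including Rbp4, the retinol carrier, at 63.3, 144 and 188 in EpCAM-high, against 989, 1388 and 772 in Lgr5-negative libraries (difference -3.08, SE 0.44, limma adjusted p = 0.00199). Cfb, a complement protease, was at 207, 291 and 151, against 26.0, 15.2 and 18.1 in Lgr5-negative libraries (difference 3.37, limma adjusted p = 0.00528). The call of C3 ended without any 1 library other than EpCAM-high 3 (adjusted p = 0.0529 to 0.104), and the number of falls was 2 without Lgr5-negative 2.

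Most genes of the stress and secretory lists did not pass. Of 26 endoplasmic reticulum genes 1 rose, the chaperone gene Dnajb9, at 4916, 5552 and 3706 in EpCAM-high, against 975, 1015 and 729 in Lgr5-negative libraries (difference 2.38, SE 0.40, limma adjusted p = 0.00384), and 3 fell (Canx, Pdia3 and Pdia4), or 6 with the sort day as a block. The number that rose was 2 without EpCAM-high 1, and the number that fell was 1 without EpCAM-high 2 and 0 without EpCAM-high 3 or any 1 Lgr5-negative library. Of 24 immediate early and stress genes, which tissue dissociation is known to induce, 5 fell and 2 rose. The falls were 1 without EpCAM-high 2 and 0 without EpCAM-high 3 or any 1 Lgr5-negative library, and the rises were 1 without EpCAM-high 1, EpCAM-high 3 or Lgr5-negative 1 and 0 without EpCAM-high 2, Lgr5-negative 2 or Lgr5-negative 3. Egr1 was at 331, 226 and 179 in EpCAM-high, against 1310.0, 1468 and 972 in Lgr5-negative libraries (difference -2.37, limma adjusted p = 0.021), and its call ended without any 1 library other than EpCAM-high 1 (adjusted p = 0.0514 to 0.0812). Fos was at 1653, 454 and 203, against 2271, 2523 and 1924 in Lgr5-negative libraries (difference -2.06, limma adjusted p = 0.0356), and its call ended without any 1 library other than EpCAM-high 1 (adjusted p = 0.0804 to 0.114). Of 16 antigen presentation genes 2 rose, Irf1 and Igtp. The call of Irf1 ended without any 1 library other than EpCAM-high 3 (adjusted p = 0.0921 to 0.133). That of Igtp ended without any 1 library other than EpCAM-high 3 (adjusted p = 0.0874 to 0.123).

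**Figure D5:**
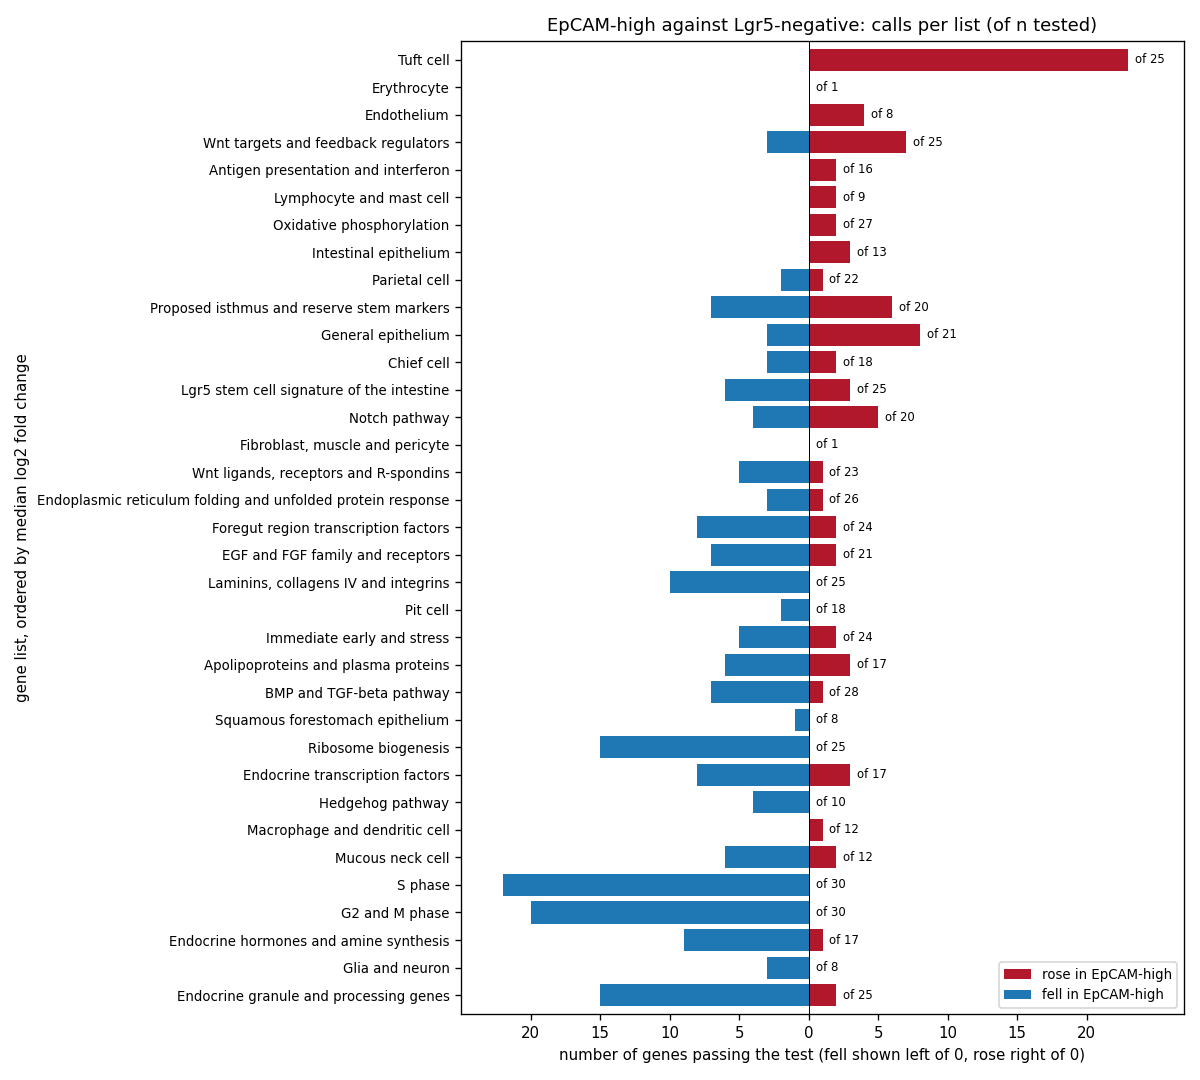
Number of genes that rose (right of 0) or fell (left of 0) in EpCAM-high against Lgr5-negative cells in each of 35 lists, ordered by median log2 fold change, with the number tested at the right. The tuft cell list (23 of 25 rose) is at the top, and the endocrine granule list (15 of 25 fell) is at the bottom, with the G2 and M phase (20 of 30) and S phase (22 of 30) lists near it.

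Markers of cells outside the epithelium were examined because some of the risen genes are known from blood cells and vessels. Of the macrophage and dendritic cell list 12 of 28 were tested, and Fcna alone rose and none fell (1 fell without EpCAM-high 1 or EpCAM-high 2). Its summed level ran from 7850.6 to 12419.6 in EpCAM-high, against 722 to 955 in Lgr5-negative libraries, and Fcna made up most of the EpCAM-high sum. Adgre1, the macrophage antigen F4/80, was at 0 in all EpCAM-high libraries, and C1qa was at 13.9, 4.58 and 13.4 in EpCAM-high and 35.2, 18.7 and 24.9 in Lgr5-negative libraries. Of 9 tested genes of the lymphocyte and mast cell list (27 listed) 2 rose: Kit, the stem cell factor receptor, at 9571, 10338 and 8795 in EpCAM-high, against 1363, 646 and 587 in Lgr5-negative libraries (difference 3.57, SE 0.41, limma adjusted p = 0.000754), and the B cell receptor chain gene Cd79b, at 439, 829 and 373, against 15.3, 14.0 and 5.67 in Lgr5-negative libraries (difference 5.45, SE 0.81, limma adjusted p = 0.0022). No gene of this list fell, except 1 when EpCAM-high 1 was left out. The list summed to between 10751 and 15020.2 in EpCAM-high and between 921 and 1597 in Lgr5-negative libraries. The T cell receptor genes Cd3e and Trbc2 and the mast cell protease gene Cpa3 were at 0 in all EpCAM-high libraries, and Cd79a, the partner of Cd79b, was at 6.44, 0 and 0. The pan-leukocyte gene Ptprc was at 2938, 3735 and 1497 in EpCAM-high and 76.4, 103 and 247 in Lgr5-negative libraries, without overlap, but did not pass (difference 4.34, limma adjusted p = 0.069).

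The endothelial list gave 4 rises and no fall of 8 tested (15 listed). Tie1 was at 371, 849 and 248 in EpCAM-high, against 0, 10.5 and 0 in Lgr5-negative libraries (difference 7.57, SE 1.02, limma adjusted p = 0.00146), and its relative Tek, an angiopoietin receptor, at 1426, 2503 and 2166, against 102, 26.9 and 68.0 in Lgr5-negative libraries (difference 5.08, SE 0.67, limma adjusted p = 0.00135). Esam rose (difference 2.28, limma adjusted p = 0.000801), and so did Plvap (difference 1.74, limma adjusted p = 0.0412), whose call ended without any 1 of the 6 libraries (adjusted p = 0.0504 to 0.135). The list summed to between 2776 and 4678.7 in EpCAM-high, against 470.5 to 585 in Lgr5-negative libraries. Other genes that define endothelium were at or near 0: Cldn5, Flt1 and Emcn were at 0 in all EpCAM-high libraries, and Pecam1 was at 0, 27.5 and 0. Of 18 fibroblast, muscle and pericyte genes only Dcn passed the filter, and the list summed to 15.8 to 115 in EpCAM-high and 27.5 to 32.9 in Lgr5-negative libraries. The glia and neuron list gave 3 falls of 8 tested, but 0 without any 1 Lgr5-negative library, with sums of 165 to 258 in EpCAM-high and 1256.5 to 1919.3 in Lgr5-negative libraries. One of its members, Snap25, is also an endocrine granule gene. The erythrocyte list (1 gene tested of 10) and the squamous forestomach list (1 fall of 8 tested, 0 without any 1 Lgr5-negative library) showed sums of 152 to 381 and 440 to 481 in EpCAM-high, against 29.3 to 39.7 and 394 to 620.3 in Lgr5-negative libraries. The part of other cell types in the results was not tested.

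The largest rises and falls among all genes with at least 100 normalized counts in the higher group were read next. Tmprss6, a membrane serine protease known for control of hepcidin in liver, was at 606, 1932 and 151 in EpCAM-high, against 0, 1.17 and 3.40 in Lgr5-negative libraries (difference 8.05, SE 1.45, limma adjusted p = 0.00506). Ltf followed, as given above. Olfml1 was at 766, 734 and 312, against 3.06, 0 and 3.40 in Lgr5-negative libraries (difference 7.75, SE 1.48, limma adjusted p = 0.00663). Gimap6, a GTPase known from lymphocytes, was at 310.0, 549.9 and 312, against 0, 0 and 5.67 in Lgr5-negative libraries (difference 7.65, SE 1.32, limma adjusted p = 0.00419). These genes were close to absent in Lgr5-negative libraries, so their folds depend on few reads there. Edil3, a secreted integrin ligand, was at 1769, 2622 and 1124 in EpCAM-high, against 16.8, 16.4 and 32.9 in Lgr5-negative libraries (difference 6.31, SE 0.59, limma adjusted p = 0.000408), and Lrrn1, a leucine-rich repeat membrane protein, at 2443, 2841 and 1844, against 15.3, 19.9 and 90.7 in Lgr5-negative libraries (difference 6.22, SE 0.72, limma adjusted p = 0.000801). The neurofilament gene Nefl was at 557, 685 and 577, against 0, 12.9 and 18.1 in Lgr5-negative libraries (difference 6.56, limma adjusted p = 0.00697), and Jakmip2 at 41.8, 451 and 383, against 0, 0 and 4.54 in Lgr5-negative libraries (difference 6.79, limma adjusted p = 0.00419).

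For 3 other genes among the 12 largest rises the Lgr5-negative libraries held 1 to 3 reads in all. Malrd1 had 900 reads in EpCAM-high and 3 in Lgr5-negative libraries, a ratio of levels of 273 (exact 95% interval 93.1 to 1326). Sox11, a transcription factor of embryonic tissues, had 433 and 1, a ratio of 394 (exact 95% interval 70.3 to 15591). Sla, an adaptor known to dampen antigen receptor signalling, had 453 and 3, a ratio of 137 (exact 95% interval 46.7 to 668). The intervals cover counting error only. All 12 largest rises were also higher in EpCAM-high than in EpCAM-low libraries by the test between these sorts, with Lrrn1 at 3.45 (limma adjusted p = 0.006). They were picked as high in the same EpCAM-high libraries, so this is not independent support.

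The 12 largest falls were led by proglucagon. Several others had no read in any EpCAM-high library. Sarm1, a NAD-cleaving enzyme of axon degeneration, was at 307, 287 and 202 in Lgr5-negative libraries, at least 77.3-fold lower in EpCAM-high, and the collagen gene Col11a1 at 202, 312 and 170.1, at least 66.4-fold lower. Spock3, the synaptic vesicle gene Sv2b, Crmp1, the calcium channel subunit gene Cacnb2 and Ggt7 were at least 53.6-fold, 46.7-fold, 44.8-fold, 36.9-fold and 34.7-fold lower. Vwa5b2 had 2 reads in EpCAM-high and 565 in Lgr5-negative libraries, a ratio (Lgr5-negative over EpCAM-high) of 311 (exact 95% interval 85.6 to 2571), and Lhfpl4 had 1 and 374, a ratio of 411 (exact 95% interval 73.4 to 16284). Ap3b2, an adaptor protein subunit of neurons, was at 0, 0 and 10.9 in EpCAM-high, against 222, 301 and 203 in Lgr5-negative libraries (difference -6.71, limma adjusted p = 0.0166), with its call lost without any 1 library other than EpCAM-high 3 (adjusted p = 0.0519 to 0.067).

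The EpCAM-low sort is the other Lgr5-positive group of the corpus. Between EpCAM-high and EpCAM-low cells 4714 of 14847 genes differed (31.8%), 2595 higher and 2119 lower in EpCAM-high (2985 differed without EpCAM-high 2). Between EpCAM-low and Lgr5-negative cells 4590 differed (30.9%). Of the 1585 genes that rose over Lgr5-negative cells, 1095 (69.1%) were also higher than in EpCAM-low cells, 40 were lower and 450 passed neither way. The same EpCAM-high libraries enter both comparisons. Genes picked as high in them lean towards passing both, so this overlap is not independent support. EpCAM-low and EpCAM-high share the Lgr5-negative libraries as controls, so the levels are given side by side. Trpm5 was at 60059, 117474 and 75025 in EpCAM-high, 3839, 1166 and 462 in EpCAM-low and 5389.8, 2959.7 and 4639 in Lgr5-negative libraries (EpCAM-high minus EpCAM-low 5.99, SE 0.63, limma adjusted p = 0.000174). Ascl2 was at 1899.6, 2493 and 2348 in EpCAM-high, 274, 252 and 181 in EpCAM-low and 191, 112 and 178 in Lgr5-negative libraries (EpCAM-high minus EpCAM-low 3.26, limma adjusted p = 6.68e-05). For both genes the EpCAM-low libraries lay far under the EpCAM-high ones. Pgc ran the other way, at 4992513, 5647738 and 7947818 in EpCAM-high libraries, against 50008158, 89955986 and 39969348 in EpCAM-low ones (EpCAM-high minus EpCAM-low -3.22, limma adjusted p = 0.000231), as did Chia1 (-3.87, limma adjusted p = 0.000112) and Atp4a (-3.10, limma adjusted p = 0.0137).

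Ghrl and Hdc were low in both Lgr5-positive sorts. Ghrl was at 1700.1, 4788 and 8601 in EpCAM-high, 5741, 3562 and 4897 in EpCAM-low and 43540.2, 82857 and 64101 in Lgr5-negative libraries, and Hdc at 1038, 1445 and 1364 in EpCAM-high, 1622, 953 and 456 in EpCAM-low and 18274, 23972 and 10621 in Lgr5-negative libraries. Neither passed between the Lgr5-positive sorts (Ghrl -0.17, limma adjusted p = 0.821, and Hdc 0.51, limma adjusted p = 0.398). Summed over the granule list, EpCAM-high libraries held 46260.5 to 63868.1 normalized counts, EpCAM-low libraries 7873.2 to 14242.4 and Lgr5-negative libraries 177646 to 295817.9. Cpe, which rose, was the largest part of the EpCAM-high sums, and Chga most of the Lgr5-negative sums. Of the 25 tested members 6 were higher and 3 lower in EpCAM-high than in EpCAM-low cells, where 17.5% of all genes were higher and 14.3% lower. Ggt7 separated the Lgr5-positive sorts, with no read in EpCAM-high, 196, 84.1 and 78.1 in EpCAM-low and 121, 149 and 88.5 in Lgr5-negative libraries (EpCAM-high minus EpCAM-low, limma adjusted p = 7.54e-05).

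The antral Lgr5 sort set Lgr5-positive against Lgr5-negative cells in another region, in a table scaled separately. Its labels name no EpCAM gate, whereas the corpus values are those of the EpCAM-high part of the Lgr5-positive cells. None of 14047 genes passed in the antrum by limma (1017 at an unadjusted p under 0.05, and 446, or 3.18%, with the sort day as a block, 352 of them higher, or 2.51%, and 94 lower, or 0.669%). Lgr5 was at 5727, 4186 and 2767 in antral Lgr5-positive and 66.3, 196 and 321 in antral Lgr5-negative libraries (log2 fold change 4.64). Nkd1 was at 1385, 1226 and 608 in antral Lgr5-positive and 46.2, 109.8 and 152 in antral Lgr5-negative libraries, a log2 fold change of 3.45 beside 4.74 in the corpus. Muc6 had a log2 fold change of 4.75 in the antrum beside -2.68 in the corpus, and Pga5 3.77 beside -1.98. In the antrum these 2 passed with the sort day as a block (limma adjusted p = 0.00513 for Muc6 and 0.00926 for Pga5). The tuft cell list had a median of 0.49 over 23 genes tested in the antrum beside 3.59 in the corpus, and the G2 and M phase list -0.89 beside -2.73. For EpCAM-low against Lgr5-negative cells of the corpus these 2 medians were -2.15 and -3.46. Differences that go with region and with the EpCAM gate cannot be told apart, and the difference between the regions was not tested.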

How the data were processed

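Sorted cells of the mouse corpus were profiled by RNA-seq. Per the labels' protocols, an RNeasy kit served for RNA extraction and a Clontech SMARTer low-input kit for the libraries. Per the submitters' processing notes, mm9, HTSeq, STAR, edgeR and DESeq2 are listed without versions or roles. The use of strand is not stated, so overlapping or antisense genes and near-identical copies may share reads. The authors deposited normalized counts (a signal: counts over 1 size factor for each library), with corpus and antrum scaled in separate tables. Cell numbers and sort days are from the authors' deposited sort sheet. The authors' comparison tables were not used.

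At least 99.995% of the values above 0 in each library were whole multiples of 1 read (tolerance 0.01 read), which gave reads and depth. Left out were 433 features without a gene name (at most 0.19% of the reads of a compared library), 25 named by a calendar date, and 9 per-sample columns that match no sample.

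The design named edgeR for raw counts. Because the values are normalized, limma (trend and robust) was fitted instead to log2(value + 1) of the 9 corpus Lgr5-DTR-GFP libraries together, over genes reaching 10 in at least 3 libraries, after a test on simulated data. There limma recovered 6.2% of simulated log2 changes of 1, 48.9% of those of 2 and 75.5% of those of 3. Genes that did not pass are therefore not shown to be unchanged. Versions were R 4.3.3, limma 3.58.1, edgeR 4.0.16, DESeq2 1.42.0 and Python 3.11.15. Alternatives were other pseudocounts, filters and scalings, the compared libraries alone, edgeR and DESeq2 on recovered reads, a sort-day block, and leaving out each library.

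Same-numbered libraries shared a sort day for 3 of 3 numbers, so the numbers pair them. Their deviations from the group means correlated at 0.0336, 0.0272 and -0.0563. Pooling of animals is not stated, and p-values therefore describe the spread over these sorts. Replicates differed beyond sampling noise (chi-square per degree of freedom 53.25 to 162.82 in the groups compared). The EpCAM-low libraries, which enter the same fit, stood at 113.48 to 326.47. Standard errors and adjusted p-values thus also carry the spread of EpCAM-low libraries, including in fits that leave out a library. With the compared libraries alone 4490 genes passed, against 3140 as reported. The part of the EpCAM-low spread in calls that were lost or not made was not tested. No molecular identifiers are described, and intervals and floors cover counting error only.

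The members and 35 gene lists were chosen with earlier results of these data known. The naming rule took the 5 working and sort markers, the 12 largest rises and 12 largest falls that passed, moved one way in 3 of 3 pairs and averaged at least 100 normalized counts in the higher group, up to 4 passing members of each list, and the 10 most abundant genes. A few genes that these rules or lists cover are counted but not reported here by name.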

Additional observations from a re-analysis of the deposited data

Results flagged for a closer look

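For 13 genes every pair of the corpus moved one way and every pair of the antrum the other, with Lgr5-positive set against Lgr5-negative cells in both. The difference was not tested, and the antral labels name no EpCAM gate, so region and gate cannot be told apart. The naming rule picked 145 genes, 134 of them with a call in the corpus. With so few pairs, opposite runs also occur where the antrum holds no difference, and the number to be expected was not worked out. No antral value passed by limma, while with the sort day as a block Muc6 (adjusted p = 0.00513), Pga5 (0.00926) and Ror2 (0.016) passed there. Higher in antral Lgr5-positive but lower in corpus EpCAM-high cells were Muc6 (log2 fold change 4.75 in the antrum and -2.68 in the corpus), the pepsinogen gene Pga5 (3.77 and -1.98), Ror2 (1.802 and -2.98), Lor (1.46 and -3.45), Kcnj15 (1.01 and -1.002), Id4 (0.75 and -2.08), Col4a5 (0.34 and -3.13), Galnt6 (0.26 and -2.74) and Smo (0.25 and -2.23). Lower in antral Lgr5-positive but higher in corpus EpCAM-high cells were Dll3 (-1.61 and 2.68), Krt8 (-0.89 and 0.64), Fgf9 (-0.69 and 2.53) and Cldn7 (-0.29 and 3.25).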

How the results depend on the processing

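Of genes that differed between EpCAM-high and Lgr5-negative cells, 3140 as reported, other pseudocounts, filters, scalings and tools gave 2800 (a filter of 50) to 4490 (the 6 libraries alone), with 2969 by edgeR and 4043 by DESeq2. With the sort day as a replicate block 3559 passed. Among the genes described or listed, the block ended 7 calls (Cdk6, Coro1a, Dkc1, Jund, Lamb1, Rrp12 and Snap25) and added 23. Leaving out 1 library gave 1372 to 2721. Keeping the genes of the 9-library filter in these fits, an alternative chosen after seeing the data, gave 1575 to 2898. Between EpCAM-high and EpCAM-low cells, 4714 as reported, the other settings gave 3143 to 5413 (5252 with the block), and leaving out 1 library 2985 to 4735, or 3200 to 4767 with those genes kept. The cause was not tested.

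Of 2979 values of single genes under other settings, 2517 kept direction and call, 431 lost the call (402 of them with a library left out), 10 gained it and 21 changed sign. The sign changes were those of 4 genes that did not pass. Pla2g1b was at -0.019 with TMM and between -0.19 and 0.28 with a library left out, negative without EpCAM-high 2 (-0.021), EpCAM-high 3 (-0.19), Lgr5-negative 1 (-0.081) or Lgr5-negative 3 (-0.073). Psca was at 0.091 by edgeR, 0.076 by DESeq2 and between -0.40 and 0.33 with a library left out (0.33 without EpCAM-high 2 and 0.014 without Lgr5-negative 2). Gkn2 lay between -2.01 and 0.13 (0.13 without EpCAM-high 3), and Dcn between -1.18 and 0.30 (0.069 without Lgr5-negative 2 and 0.30 without Lgr5-negative 3). Depth limits the genes with few reads in a group, whose folds are printed as bounds or intervals.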

Other observations

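These groups were put together after the values were seen, and their direction is a description. GTPases of the Gimap family, known from lymphocytes, were at high levels in EpCAM-high cells. Gimap1 was at 2359, 3997 and 2678 in EpCAM-high, against 62.7, 56.2 and 74.8 in Lgr5-negative libraries (difference 5.49, SE 0.45, limma adjusted p = 0.000255), and Gimap3, Gimap5, Gimap6 and Gimap8 rose too, while Gimap9 did not pass (difference 2.27, limma adjusted p = 0.237). The call of Gimap5 ended without Lgr5-negative 2 (adjusted p = 0.0559). Signalling genes known from leukocytes were higher as well, with Vav1 at 15022, 23020.0 and 16397 in EpCAM-high, against 1804, 1009 and 1351 in Lgr5-negative libraries (difference 3.72, SE 0.69, limma adjusted p = 0.00575) and the phosphatase gene Ptpn6 at 15323, 24123 and 19238, against 2544, 1778 and 1994 in Lgr5-negative libraries (difference 3.21, limma adjusted p = 0.000216). Rac2 (difference 4.02, limma adjusted p = 0.00398), Fyb (difference 3.54, limma adjusted p = 0.000627), Inpp5d (difference 3.30, limma adjusted p = 0.00492) and Lyn (difference 1.96, limma adjusted p = 0.000583) rose, whereas the actin-bundling gene Lcp1 did not pass (difference 0.56, limma adjusted p = 0.0815).

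Genes of the actin core bundle and the microvillus gave several large changes. Of the protocadherin genes that link microvillus tips, Cdhr2 was at 35901, 48024 and 46442 in EpCAM-high, against 4023, 1519 and 2595 in Lgr5-negative libraries (difference 4.10, SE 0.59, limma adjusted p = 0.002). Cdhr5 was at 15809.5, 23231 and 17823 in EpCAM-high, against 1059, 458 and 759 in Lgr5-negative libraries (difference 4.70, SE 0.38, limma adjusted p = 0.00024). Neither overlapped between the groups. Espn, an actin-bundling protein gene, rose by 2.77 (limma adjusted p = 0.000538). Ush1c, which anchors these protocadherins in the intestine, was at 0 in EpCAM-high, against 44.3, 42.1 and 26.1 in Lgr5-negative libraries, at least 10.9-fold lower. Of the inositol trisphosphate receptors, Itpr2 was at 4358, 11563 and 9954, against 592, 627 and 841 in Lgr5-negative libraries (difference 3.55, SE 0.37, limma adjusted p = 0.000583), and Itpr3, the form known from taste cells, at 740.1, 1136 and 1262, against 2453, 3002 and 3039 in Lgr5-negative libraries (difference -1.47, limma adjusted p = 0.0448), a call that ended without any 1 of the 6 libraries (adjusted p = 0.0704 to 0.129). The taste G protein gene Gnb3 was at 0 in EpCAM-high, against 55.0, 16.4 and 20.4 in Lgr5-negative libraries, at least 8.92-fold lower.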
